A study of Homo sapiens with 12 samples.

Results

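The aryl hydrocarbon receptor set comprised 7 genes chosen by name: AHR, ARNT2, AHRR, CYP1A1, CYP1B1, NQO1 and TIPARP. All 7 were among the 19775 genes tested, through 12 probe sets that carry one of these symbols alone. Each gene was read from its main probe set, the one with the highest mean over 11 arrays.

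The aryl hydrocarbon receptor is a transcription factor of the bHLH-PAS family that binds planar aromatic pollutants, dietary indoles and tryptophan metabolites. Without a ligand it waits in the cytosol, held by Hsp90 and the co-chaperone p23; with one it enters the nucleus, pairs with an ARNT protein and binds DNA at sites around the letters GCGTG. Its classic targets are the cytochrome P450 genes CYP1A1 and CYP1B1, the quinone reductase gene NQO1, and AHRR and TIPARP, whose proteins feed back on the receptor. The receptor is an Hsp90 client as a protein, whereas the arrays measured RNA only, so neither receptor protein nor its binding to DNA was measured.

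The samples are labelled PC3, a line from a prostate cancer, grown in serum-containing medium and given no drug (control, labelled untreated and given vehicle per the protocol), 2.5 µM Wee1 inhibitor II, 40 nM 17-AAG, or both drugs. Wee1 is a kinase that restrains entry into mitosis, and 17-AAG is an Hsp90 inhibitor, added 24 h after Wee1 inhibitor II and 48 h before harvest. Each of the 4 groups had 3 Affymetrix arrays, but control replicate 2 was removed by the submitters for weak signal and was left out here, which leaves 2 control arrays and 11 in all. The title asks whether Wee1 inhibition sensitises the cells to the Hsp90 inhibitor; no label says that replicates were separate cultures, so p-values measure only the spread between these arrays, which may be technical.

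The 11 arrays go against the PC3 label. On them CTNNA1 and STAT3, which PC3 lacks, had signals of 2560 to 5040 and 819 to 1300, and MLANA and PMEL, which mark pigment cells, had 2870 to 9920 and 3690 to 9200. The epithelial gene EPCAM had at most 26.2 there and the prostate gene HOXB13 at most 11.3. Not all 10 measured epithelial and prostate markers, of 12 listed, were low: KRT18 had 453 to 650 (2240 on control replicate 2), ESRP1 142 to 728 (48.5) and KLK3 41.8 to 90.2 (79.9). The 10 summed to 874 to 919 in control, 781 to 907 with Wee1 inhibitor II, 909 to 974 with 17-AAG, 1360 to 1460 with both drugs and 6250 on control replicate 2. Control replicate 2 had 1.57 for CTNNA1, 2.67 for MLANA and 2090 for HOXB13, and its correlation with the other arrays was 0.825 to 0.833 against at least 0.913 among them. The summed signal of 10 measured pigment cell markers, of 11 listed, was 34700 to 36500 on control arrays, 26700 to 29400 with Wee1 inhibitor II, 43700 to 49400 with 17-AAG and 50600 to 51900 with both drugs. Bright genes such as TYRP1 (11100 to 15400) weigh most in this sum, and OCA2 had only 3.79 to 33.9. Of the 10, 1 rose and 6 fell with Wee1 inhibitor II, where 24.9% of all genes were called. With 17-AAG 7 rose and with both drugs 8, and none fell, where 16.7% and 28.0% were called. Fibroblast markers (8 of 8 measured) summed to 1100 to 1250 in control, 440 to 506 with Wee1 inhibitor II, 1800 to 1940 with 17-AAG and 795 to 863 with both drugs; LUM alone, at 294 to 1820, made up most of this sum, the others had at most 109, and 1 of the 8 was called with Wee1 inhibitor II (median difference 0.22). The part of these sums in the results below was not tested, and fewer cells of a type cannot be told apart from less RNA per cell. The 3-prime minus 5-prime gap of ACTB was 0.69 ± 0.03 (log2, SD, n = 2) in control and 0.68 ± 0.09 (n = 3) with Wee1 inhibitor II. It was 0.96 ± 0.08 (n = 3) on 17-AAG arrays and 0.96 ± 0.05 (n = 3) on those given the combination, and its part was not tested either. Of 9 measured heat shock genes, of 12 listed, which Hsp90 inhibitors are known to induce, none rose and 5 fell with 17-AAG, none rose and 6 fell with Wee1 inhibitor II, and 1 rose and 3 fell with both drugs. Of all genes, 16.7%, 24.9% and 28.0% were called in these comparisons. The list medians were -0.59, -0.72 and -0.23, beside 0.01, 0.12 and 0.11 over all genes. HSPA1A, HSPA1B and HSPA8 were the listed genes not measured, so the counts leave them out. The co-chaperone genes DNAJB1 (1190 in control, 725 with Wee1 inhibitor II, 510 with 17-AAG and 889 with both drugs) and CHORDC1 (1800, 752, 851 and 1190) fell in each treated group, and HSPA4L (152, 35, 170 and 166) fell with Wee1 inhibitor II. Groups are named here as labelled; whether the labels hold was not tested.

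Members were called at a limma p-value under 0.05 after Benjamini-Hochberg adjustment over all genes; differences are on the log2 scale, ± the standard error of the fit. With Wee1 inhibitor II, 4 members rose (AHR, ARNT2, AHRR and NQO1) and 1 fell (TIPARP), where 14.5% of all genes rose and 10.3% fell (24.9% together). With 17-AAG alone ARNT2 rose and NQO1 fell, against 9.93% and 6.80% of all genes (16.7% together). With both drugs 2 members rose (ARNT2 and AHRR) and 3 fell (CYP1A1, NQO1 and TIPARP), against 16.7% and 11.3% (28.0% together). These comparisons share the control arrays. The median difference of the 7 members was 0.51 with Wee1 inhibitor II, -0.26 with 17-AAG and -0.24 with both drugs, beside 0.12, 0.01 and 0.11 over all genes. Centring each array on its median moved the median of all genes to -0.11 with Wee1 inhibitor II and -0.08 with both drugs, so differences near that size depend on the scaling. With control replicate 2 in the fit, 1 of the 20 calls over all 6 comparisons remained, that of ARNT2 with both drugs against control.

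**Figure D1:**
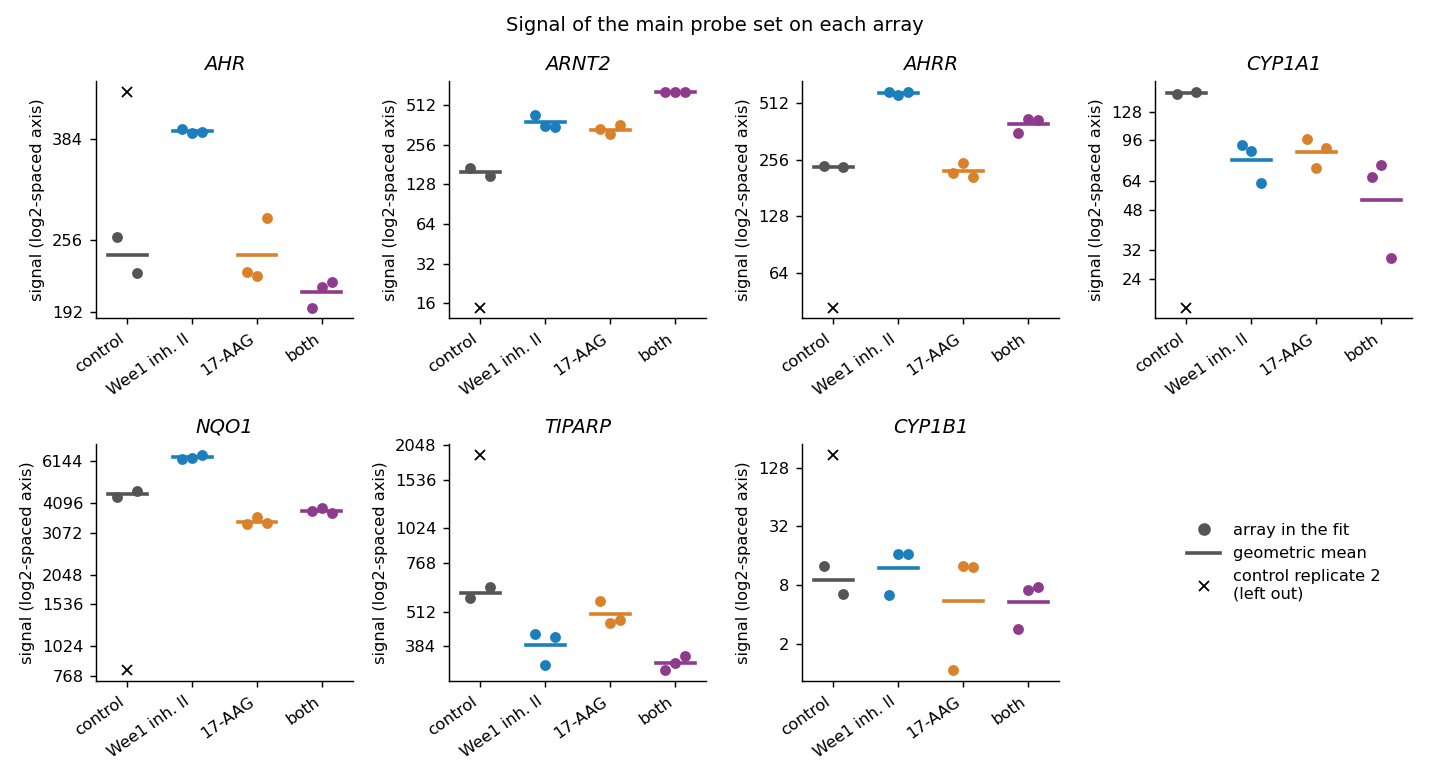
Signal of each member's main probe set on every array, on a log2-spaced axis that does not start at 0 and differs between panels; dots are the 11 arrays compared, lines the geometric mean of a group, and crosses control replicate 2, which was left out. AHR stands at 393 to 400 on the 3 arrays with Wee1 inhibitor II and at 195 to 280 on the 8 others, and ARNT2 is lowest in control (148 to 169) and highest with both drugs (641 to 644).

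The receptor gene AHR had signals of 259 and 224 on the control arrays and 400, 393 and 394 with Wee1 inhibitor II. It had 225, 222 and 280 with 17-AAG, and 195, 212 and 217 with both drugs. All 3 arrays with Wee1 inhibitor II alone lay above the 8 others, the 17-AAG arrays spanned the control arrays, and those with both drugs lay below every other array. AHR rose by 0.71 ± 0.12 with Wee1 inhibitor II, 1.64-fold (adjusted p = 0.00388). With 17-AAG the difference from control was 0.00 ± 0.12 (95% interval -0.28 to 0.28, adjusted p = 0.997). Adding 17-AAG to Wee1 inhibitor II lowered AHR by 1.90-fold (-0.93 ± 0.11, adjusted p = 0.000956). Both drugs stood at -0.21 ± 0.12 against control (adjusted p = 0.26) and -0.21 ± 0.11 against 17-AAG (adjusted p = 0.239). After median centring of the arrays these became -0.41 (adjusted p = 0.0316) and -0.42 (adjusted p = 0.0261), past the threshold. In order of level, both drugs, 17-AAG and control did not differ beyond the threshold as deposited, and Wee1 inhibitor II stood above them.

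ARNT2, a partner protein that pairs with bHLH-PAS factors and is best known from neurons, had signals of 169 and 148 in control. It had 429, 356 and 351 with Wee1 inhibitor II, 335, 306 and 360 with 17-AAG, and 644, 641 and 641 with both drugs. Every treated array lay above both control arrays, those of the single drugs overlapped each other, and those with both drugs lay above all others. ARNT2 rose by 1.26 ± 0.12 with Wee1 inhibitor II (2.39-fold, adjusted p = 0.000274), by 1.08 ± 0.12 with 17-AAG (2.11-fold, adjusted p = 0.00133) and by 2.02 ± 0.12 with both drugs (4.06-fold, adjusted p = 2.28e-05). The combination also stood above each single drug, by 0.95 ± 0.11 against 17-AAG (adjusted p = 0.000727) and 0.77 ± 0.11 against Wee1 inhibitor II (adjusted p = 0.00221). Its rise with 17-AAG did not pass in a fit of the control and 17-AAG arrays alone (adjusted p = 0.0643), in which no gene did. ARNT, the widely expressed partner, did not pass in any of the 6 comparisons, and its difference from control lay at 0.00 ± 0.13 with Wee1 inhibitor II, 0.20 ± 0.13 with 17-AAG and 0.12 ± 0.13 with both drugs.

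AHRR codes for the repressor that resembles the receptor and competes with it for ARNT and for DNA. Its signals were 238 and 233 in control, 588, 562 and 587 with Wee1 inhibitor II, 218, 245 and 206 with 17-AAG, and 353, 421 and 418 with both drugs. The arrays with Wee1 inhibitor II alone were highest, those with both drugs came next, and the 17-AAG arrays overlapped control. AHRR rose by 1.30 ± 0.11 with Wee1 inhibitor II (2.46-fold, adjusted p = 0.000178) and by 0.75 ± 0.11 with both drugs (1.68-fold, adjusted p = 0.00138). With 17-AAG it stood at -0.08 ± 0.11 (95% interval -0.33 to 0.17, adjusted p = 0.707). Both drugs lay 0.83 ± 0.10 above 17-AAG (adjusted p = 0.000877) and, at -0.55 ± 0.10, below Wee1 inhibitor II (adjusted p = 0.00753).

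TIPARP codes for a mono-ADP-ribosyltransferase that modifies the receptor and dampens its activity. It had signals of 571 and 629 in control, 425, 329 and 416 with Wee1 inhibitor II, 561, 467 and 478 with 17-AAG, and 314, 332 and 353 with both drugs. No treated array reached the control arrays, the 17-AAG arrays lay above those with Wee1 inhibitor II, and the latter overlapped those with both drugs. TIPARP fell by 0.63 ± 0.14 on the log2 scale with Wee1 inhibitor II (adjusted p = 0.0125) and by 0.85 ± 0.14 with both drugs (adjusted p = 0.00247), which is 1.55-fold and 1.80-fold lower. Without control replicate 3 the first became -0.56 and did not pass (adjusted p = 0.0868). At -0.26 ± 0.14 (adjusted p = 0.278) the difference with 17-AAG did not pass. Both drugs stood at -0.59 ± 0.13 against 17-AAG (adjusted p = 0.0133) and -0.22 ± 0.13 against Wee1 inhibitor II (adjusted p = 0.334). AHRR and TIPARP, both feedback genes of the receptor, thus differed from control in opposite directions on the same arrays with Wee1 inhibitor II.

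CYP1A1 codes for the P450 enzyme whose induction is the usual readout of an active receptor. Its signals were 152 and 156 in control, 91.6, 86.6 and 62.6 with Wee1 inhibitor II, 97.2, 73.1 and 89.2 with 17-AAG, and 66.7, 75.4 and 29.5 with both drugs. All 9 treated arrays lay below both control arrays, and the 3 treated groups overlapped. CYP1A1 fell by 1.54 ± 0.38 on the log2 scale with both drugs (2.92-fold, adjusted p = 0.0163). The single drugs did not pass, at -0.96 ± 0.38 with Wee1 inhibitor II (adjusted p = 0.107) and -0.84 ± 0.38 with 17-AAG (adjusted p = 0.188). The spread turned on combination replicate 3, at 29.5: without it the differences were -1.12 with both drugs (adjusted p = 0.00889), -0.96 with Wee1 inhibitor II (adjusted p = 0.0125) and -0.84 with 17-AAG (adjusted p = 0.0296), and all passed. The difference with Wee1 inhibitor II also passed on all arrays with log2(value + 16), with trended and robust empirical Bayes and without the dimmest 40% of genes. Without control replicate 1 or 3 the fall with both drugs did not pass (-1.56, adjusted p = 0.074, and -1.53, adjusted p = 0.0813).

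CYP1B1, the P450 that oxidises oestrogens and polycyclic aromatics, had 4 probe sets, and none exceeded 16.7 on any of the 11 arrays. That lies below the lowest array median of 17.7, so no fold change is given. The main probe set ran from 6.54 to 12.5 in control, 6.27 to 16.7 with Wee1 inhibitor II, 1.07 to 12.4 with 17-AAG and 2.84 to 7.70 with both drugs, and the groups overlapped. No comparison of CYP1B1 passed, and at this brightness a difference could not be told from background.

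NQO1 codes for a quinone reductase that is also a classic target of NRF2, the factor of the oxidative stress response. It was the brightest member, above 98.7% of all genes in mean signal, where the other members ranged from 23.6% (CYP1B1) to 79.6% (TIPARP). The main probe set had signals of 4360 and 4610 in control, 6270, 6370 and 6560 with Wee1 inhibitor II, 3340, 3580 and 3370 with 17-AAG, and 3780, 3910 and 3710 with both drugs. None of the 4 groups overlapped another: Wee1 inhibitor II was highest, then control, both drugs, and 17-AAG. NQO1 rose by 0.51 ± 0.08 with Wee1 inhibitor II (1.43-fold, adjusted p = 0.00193), and centring each array on its median took this to 0.29, which did not pass (adjusted p = 0.106). Adding 17-AAG to Wee1 inhibitor II lowered NQO1 by 1.69-fold (-0.75 ± 0.07, adjusted p = 0.000231), while both drugs against 17-AAG stood at 0.15 ± 0.07 (adjusted p = 0.185; -0.06 with centred arrays).

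On the main probe set, the falls of NQO1 below control were less secure than its rise. With 17-AAG NQO1 fell by 0.39 ± 0.08 on the log2 scale (adjusted p = 0.0109), which did not pass without control replicate 3 (-0.35, adjusted p = 0.0774), with centred arrays (-0.38, adjusted p = 0.064) or with every probe set tested (adjusted p = 0.0595). With both drugs it fell by 0.24 ± 0.08 (adjusted p = 0.0474), and this call was lost on leaving out any one of 10 of the 11 arrays (differences of -0.28 to -0.20, adjusted p = 0.0649 to 0.228); only leaving out 17-AAG replicate 2 kept it (adjusted p = 0.0478). The other NQO1 probe sets gave the same signs in the comparisons with control. With Wee1 inhibitor II they stood at 0.40 ± 0.13 and 0.54 ± 0.13 (limma p adjusted over all probe sets = 0.0951 and 0.0331). With 17-AAG they stood at -0.66 ± 0.13 and -0.45 ± 0.13 (adjusted p = 0.0244 and 0.0904). With both drugs they stood at -0.47 ± 0.13 and -0.37 ± 0.13 (adjusted p = 0.0456 and 0.11). The first of these probe sets thus passed for the falls but not for the rise, and the second for the rise alone.

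**Figure D2:**
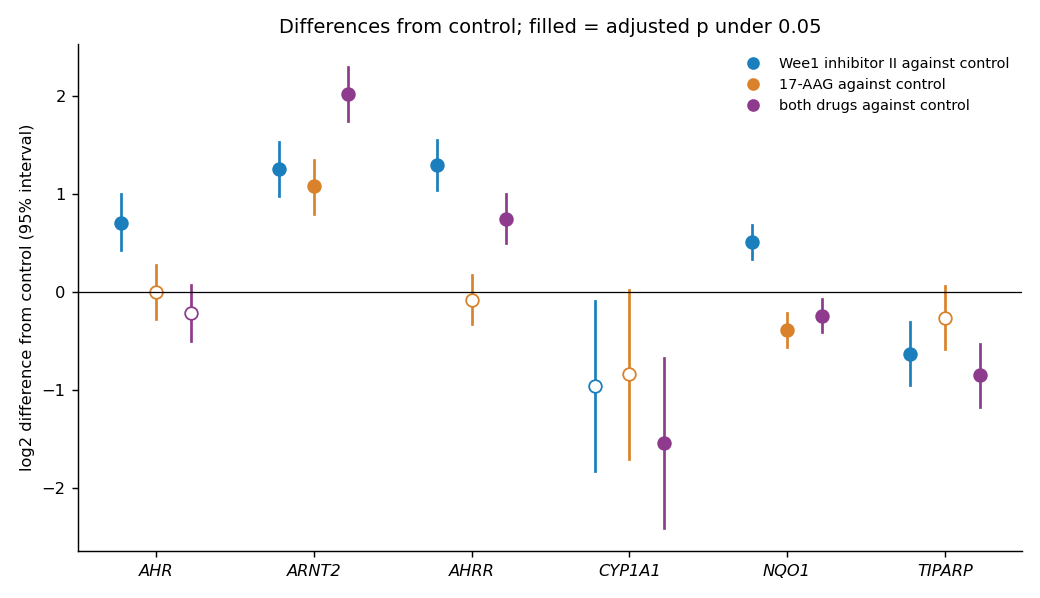
Log2 difference of 6 members (x axis) from control for each treated group, with 95% intervals of the limma fit; filled points have an adjusted p under 0.05, and CYP1B1 is left out because of its low signal. ARNT2 is above control in each treated group (1.26, 1.08 and 2.02), CYP1A1 and TIPARP are below it in each, and NQO1 is above it with Wee1 inhibitor II (0.51) and below it with 17-AAG (-0.39); AHR with 17-AAG (0.00) changes sign with the scaling.

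Promoter sequences of the 4 targets that moved in different directions are given here because each holds the receptor's core letters near its start. RefSeq windows (GRCh38.p14), from 250 bases before to 50 bases after an annotated start, were held for 5 of the 7 members, 8 windows in all, and 6 of these contained GCGTG on either strand. Of all 35116 windows of 300 bases, 36.5% did, so the match alone does not set these genes apart. In the sequences, written 5′ to 3′ along the gene with minus numbers before the start, capitals mark GCGTG or its reverse complement CACGC. The AHRR window (chr5:321464-321763, plus strand) has it at -30 to -26, CYP1A1 (chr15:74725479-74725778, minus strand) at -57 to -53 and NQO1 (chr16:69726511-69726810, minus strand) at 2 to 6. The TIPARP window (chr3:156674340-156674639, plus strand) has it at -208 to -204 and at -142 to -138.
AHRR: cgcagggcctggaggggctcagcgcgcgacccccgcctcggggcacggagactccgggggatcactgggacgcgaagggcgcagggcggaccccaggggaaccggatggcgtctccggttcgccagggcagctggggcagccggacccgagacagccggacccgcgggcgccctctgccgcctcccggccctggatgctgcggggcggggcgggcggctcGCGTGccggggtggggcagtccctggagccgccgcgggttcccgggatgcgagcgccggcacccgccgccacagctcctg
CYP1A1: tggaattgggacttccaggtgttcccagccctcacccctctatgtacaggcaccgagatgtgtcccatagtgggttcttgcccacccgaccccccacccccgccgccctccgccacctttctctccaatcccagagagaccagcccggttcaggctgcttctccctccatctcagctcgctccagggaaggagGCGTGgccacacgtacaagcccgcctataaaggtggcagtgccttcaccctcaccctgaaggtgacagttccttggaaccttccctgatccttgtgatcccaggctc
NQO1: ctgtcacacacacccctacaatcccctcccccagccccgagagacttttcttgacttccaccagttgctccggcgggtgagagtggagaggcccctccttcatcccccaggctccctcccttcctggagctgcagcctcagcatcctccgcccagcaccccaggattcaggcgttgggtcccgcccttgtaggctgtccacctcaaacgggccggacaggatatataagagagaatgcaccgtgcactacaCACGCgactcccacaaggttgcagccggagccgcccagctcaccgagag
TIPARP: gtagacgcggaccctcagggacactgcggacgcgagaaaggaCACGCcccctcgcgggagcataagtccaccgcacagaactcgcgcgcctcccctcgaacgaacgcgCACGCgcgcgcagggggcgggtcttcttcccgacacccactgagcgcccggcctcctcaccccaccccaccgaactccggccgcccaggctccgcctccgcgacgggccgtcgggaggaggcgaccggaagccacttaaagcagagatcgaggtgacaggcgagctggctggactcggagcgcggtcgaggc
The longer form TNGCGTG, which contains the core, was in the AHRR and NQO1 windows and in 5.51% of all windows. The antioxidant response element core TGACNNNGC, bound by NRF2, was in none of the 8 windows and in 13.3% of all. Known enhancers of CYP1A1 and NQO1 lie further upstream than these windows reach. Of the windows not printed, that of AHR has the core once, at 38 to 42, a second AHRR window has it at -247 to -243 and -42 to -38, both without the longer form, and 2 further TIPARP windows have none. The number of genes allows no test of a relation between letters and response.

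Whether the response to Wee1 inhibitor II differed in the presence of 17-AAG was tested by an interaction term in log2 units. It passed for AHR alone among the members (-0.93 ± 0.16, adjusted p = 0.0107), where 11.8% of all genes passed, 6.97% below and 4.82% above 0. AHR was 0.71 higher with Wee1 inhibitor II than without it in the absence of 17-AAG and 0.21 lower in its presence. NQO1 (-0.37 ± 0.10, adjusted p = 0.0551) and AHRR (-0.46 ± 0.15, adjusted p = 0.085) did not pass. Both passed without the dimmest 40% of genes (adjusted p = 0.0156 and 0.0294), with signals below 32 set to 32 (0.00463 and 0.0472) and with trended and robust empirical Bayes (0.00347 and 0.028). Neither came near with centred arrays (0.224 and 0.162), every probe set tested (0.204 and 0.203) or a gene's probe sets averaged (0.221 and 0.149). The other NQO1 probe sets had interactions of -0.20 ± 0.18 and -0.46 ± 0.18 (limma p adjusted over all probe sets = 0.628 and 0.226). ARNT2 stood at -0.31 ± 0.16 (adjusted p = 0.285), CYP1A1 at 0.26 ± 0.51 (adjusted p = 0.814) and TIPARP at 0.04 ± 0.19 (95% interval -0.39 to 0.47, adjusted p = 0.926). Of 9 measured heat shock genes, 6 passed above 0 and none below (median 1.31, beside -0.03 over all genes). The NRF2 genes had 4 above and 3 below (19 measured), and other receptor targets 1 and 2 (14 measured). Kynurenine genes had 1 and 1 (11 measured), other bHLH-PAS genes none and 1 (13 measured), and the receptor complex none. Against 17-AAG alone, both drugs raised 2 members (ARNT2 and AHRR) and lowered 1 (TIPARP), where 10.9% of all genes rose and 8.43% fell (19.3% together). Against Wee1 inhibitor II alone, both drugs raised ARNT2 and lowered AHR, AHRR and NQO1, where 7.27% rose and 6.84% fell (14.1% together). The median of the 7 members was -0.58 in the latter comparison, beside 0.00 over all genes.

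**Figure D3:**
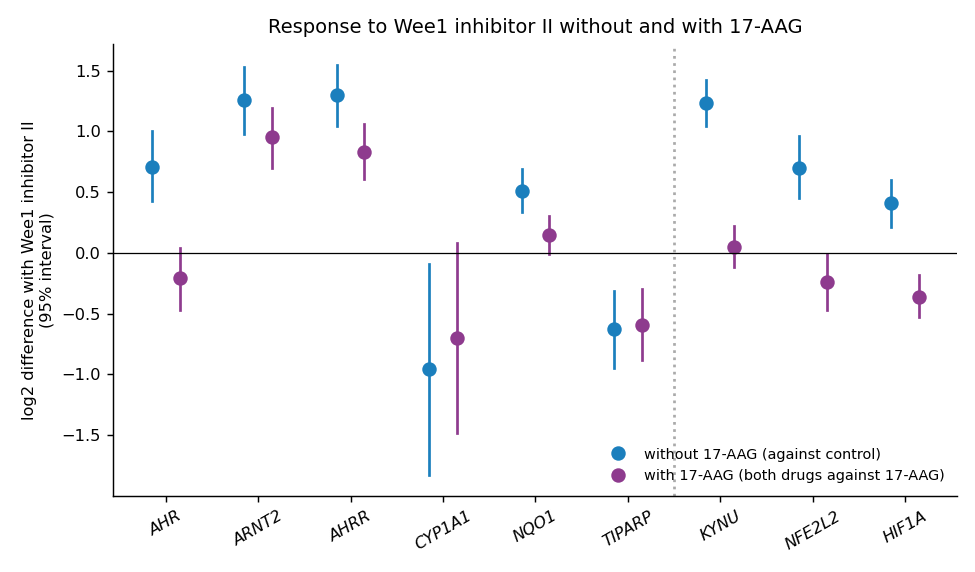
Log2 difference with Wee1 inhibitor II in the absence of 17-AAG (blue, against control) and in its presence (purple, both drugs against 17-AAG). Bars are 95% intervals of the limma fit. Genes right of the dotted line (KYNU, NFE2L2 and HIF1A) come from the other lists and do not stand for them. Each has an interaction below 0, whereas SLC7A5, not shown, has one above 0 (0.63). AHR stands at 0.71 and -0.21 and KYNU at 1.23 and 0.05, whereas TIPARP stands at -0.63 and -0.59; NQO1 in the presence of 17-AAG (0.15) changes sign when arrays are centred.

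Among genes of the receptor complex, 6 of 7 listed were measured, and 1 of the 6 passed in each comparison with control, where 24.9%, 16.7% and 28.0% of all genes passed with Wee1 inhibitor II, 17-AAG and both drugs. PTGES3, which codes for the co-chaperone p23, had a signal of 8530 in control and was lower with Wee1 inhibitor II (6320, adjusted p = 0.0379), 17-AAG (6260, adjusted p = 0.045) and both drugs (5820, adjusted p = 0.0118). It was the gene of this list that passed, and the list medians were -0.02, -0.05 and 0.10, beside 0.12, 0.01 and 0.11 over all genes. HSP90AB1, a cytosolic Hsp90, rose by 0.33 ± 0.08 with both drugs against 17-AAG (adjusted p = 0.0225), and HSP90AA1 passed in none of the 6 comparisons.

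Of 13 other bHLH-PAS genes, relatives of the receptor that include oxygen-sensing and circadian clock factors, 2 rose and 1 fell with Wee1 inhibitor II. HIF3A, SIM1, SIM2, NPAS1, NPAS3 and NPAS4 had mean signals of 5.55 to 15.8, below the array medians, where a difference could not be told from background. With 17-AAG 2 rose and none fell, and with both drugs 1 rose and 1 fell; all genes passed at 24.9%, 16.7% and 28.0%, and the list medians were 0.02, 0.16 and 0.08. HIF1A, the oxygen-sensing factor, had 3700 in control, 4900 with Wee1 inhibitor II, 3160 with 17-AAG and 2470 with both drugs. It rose by 0.41 ± 0.09 with Wee1 inhibitor II (adjusted p = 0.00981) and had an interaction of -0.76 ± 0.11 (adjusted p = 0.0056), below 0 as that of AHR. EPAS1, which codes for HIF-2 alpha, fell by 0.42 ± 0.13 with Wee1 inhibitor II (adjusted p = 0.0473) and rose by 0.49 ± 0.13 with 17-AAG (adjusted p = 0.0364). NPAS2, a clock factor, rose by 0.58 ± 0.11 with Wee1 inhibitor II (adjusted p = 0.00681).

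Of 15 other receptor targets 14 were measured, and with Wee1 inhibitor II 2 rose and 2 fell (median 0.41). With 17-AAG 1 rose and none fell (median -0.19), and with both drugs 1 rose and 2 fell (median -0.01). All genes passed at 24.9%, 16.7% and 28.0%, with medians of 0.12, 0.01 and 0.11. One of the falls with Wee1 inhibitor II was UGT1A6, at 14.5 in control and 3.56 with the drug, both below the array medians. UGT1A1, ALDH3A1 and CYP2S1 also lay below them in mean signal (6.06, 2.79 and 6.05), so the list medians rest in part on rough values. NEDD9, a scaffold of cell adhesion, was higher than control (831) in each treated group: 1290 with Wee1 inhibitor II (adjusted p = 0.000716), 1440 with 17-AAG (adjusted p = 0.000752) and 1670 with both drugs (adjusted p = 6.04e-05). SLC7A5, a transporter of large amino acids including kynurenine, fell from 2030 to 1290 with Wee1 inhibitor II (-0.66 ± 0.12, adjusted p = 0.00519) and had 2270 with 17-AAG and 2230 with both drugs. Its interaction was 0.63 ± 0.16 (adjusted p = 0.0418), above 0 unlike that of AHR. NFE2L2, which codes for NRF2, had 1910 in control, 3100 with Wee1 inhibitor II, 2270 with 17-AAG and 1930 with both drugs. Its rise with Wee1 inhibitor II was 0.70 ± 0.11 (adjusted p = 0.00265) and its interaction -0.94 ± 0.15 (adjusted p = 0.00681). CYP1A2 and CYP2S1, P450 genes of the same response, passed in none of the 6 comparisons. At the low signal of CYP2S1 a difference could not be told from background. CYP1A2 had 27 in control, near the array medians, and 52.4 with Wee1 inhibitor II, 47.7 with 17-AAG and 53.3 with both drugs. It thus lay above control in each treated group (adjusted p = 0.0797, 0.158 and 0.0684), where CYP1A1 lay below.

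The NRF2 genes did not move as one with NQO1. Of 19 measured, of 21 listed, 3 rose and 5 fell with Wee1 inhibitor II (median 0.00, beside 0.12 over all genes). NFE2L2, the gene of NRF2 itself, is among the 19, and its rise was also counted among the other receptor targets. With 17-AAG 3 rose and 6 fell (median -0.13), and with both drugs 4 rose and 7 fell (median 0.02), where 24.9%, 16.7% and 28.0% of all genes passed in these comparisons. GCLM, a subunit of the enzyme that starts glutathione synthesis, fell from 1640 to 1060 with Wee1 inhibitor II (adjusted p = 0.00159), 785 with 17-AAG (adjusted p = 0.00051) and 783 with both drugs (adjusted p = 9.52e-05). SRXN1, which repairs peroxiredoxins, fell from 1200 to 745 (adjusted p = 0.00152), 627 (adjusted p = 0.000952) and 514 (adjusted p = 7.24e-05). PGD, an enzyme of the pentose phosphate pathway, rose from 407 to 723 (adjusted p = 0.000204), 554 (adjusted p = 0.00557) and 726 (adjusted p = 0.000111). With Wee1 inhibitor II NQO1 thus rose while GCLM and SRXN1 fell, and with 17-AAG all 3 fell.

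**Figure D4:**
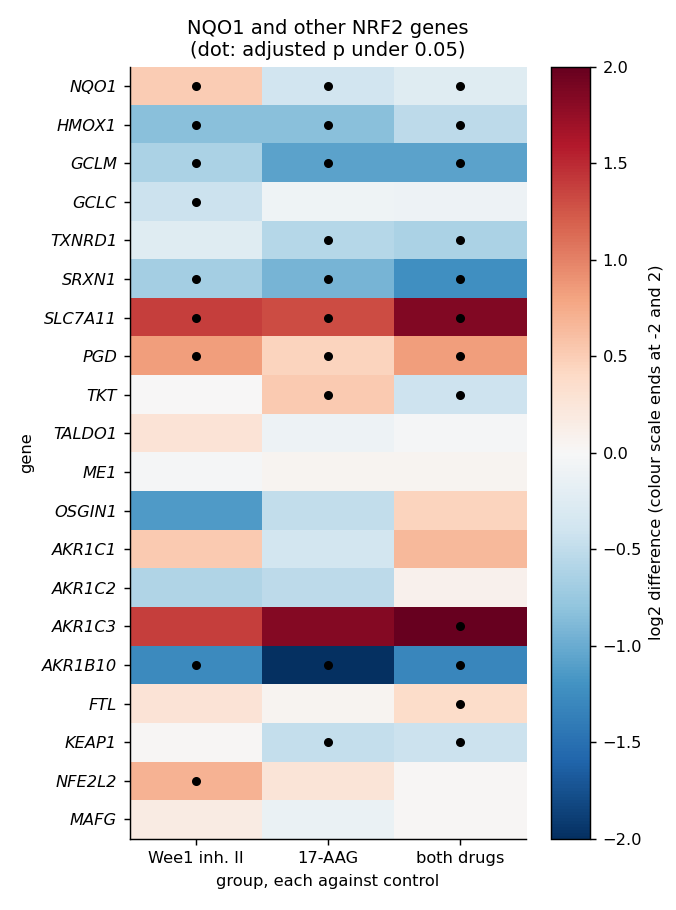
Colour shows the log2 difference from control of NQO1 and 19 other NRF2 genes (rows) in the treated groups (columns); black dots mark an adjusted p under 0.05. NQO1 is above control with Wee1 inhibitor II (0.51) where GCLM (-0.64) and SRXN1 (-0.68) are below it; AKR1C1, AKR1C2, AKR1C3 and AKR1B10, with mean signals of 18.4, 9.37, 2.15 and 16.9, lie near or below the array medians of 17.7 to 23.1 and their colours are rough.

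Among 11 genes of kynurenine metabolism, the route from tryptophan to receptor ligands, 1 rose and 2 fell with Wee1 inhibitor II, none rose and 2 fell with 17-AAG, and none rose and 2 fell with both drugs. All genes passed at 24.9%, 16.7% and 28.0% in these comparisons, and the list medians were 0.19, 0.11 and -0.01. KYNU, the hydrolase that splits kynurenine, had 581 in control, 1360 with Wee1 inhibitor II, 338 with 17-AAG and 350 with both drugs. It rose by 1.23 ± 0.08 with Wee1 inhibitor II (adjusted p = 6.62e-05), fell by 0.78 ± 0.08 with 17-AAG (adjusted p = 0.00102) and had an interaction of -1.18 ± 0.11 (adjusted p = 0.00116). AADAT, an aminotransferase that turns kynurenine into kynurenic acid, fell from 295 to 157 with Wee1 inhibitor II (adjusted p = 0.00049), 183 with 17-AAG (adjusted p = 0.00351) and 164 with both drugs (adjusted p = 0.000457). AFMID, the formamidase that yields kynurenine, fell from 36.1 to 11.0 with Wee1 inhibitor II (adjusted p = 0.0214), a rough value at signals near the array medians.

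The genes most like each member were ranked by Pearson's r of log2 signal over the 11 arrays, among 7665 genes with a mean signal of at least 128; these arrays share the 4 groups, and r is given as a description. AHR was followed most closely by KLF9, a zinc finger transcription factor (0.975; 718 in control, 1740 with Wee1 inhibitor II, 829 with 17-AAG and 554 with both drugs). RNF26 (0.972), RAPH1 (0.963), CLMN (0.961) and WNT5A, a secreted Wnt ligand (0.958), came next. ARNT2 was followed by HBE1, an embryonic globin (0.995), SOX4, a transcription factor (0.989; 402, 853, 738 and 1370 in the same order of groups), POFUT2 and HMCN1 (0.988 each) and PCDH7 (0.987). AHRR was followed by CAV1, the caveolae coat protein gene (0.986; 1200, 2380, 1050 and 1760), TATDN1 (0.978), CSRP1 (0.976), SCRG1 (0.974) and LIMA1 (0.973). NQO1 was followed by ANXA1, a phospholipid-binding annexin (0.991; 1860, 4780, 1060 and 1510), NTM (0.990), MYOF and KYNU (0.989 each) and DPYSL2 (0.988). TIPARP was followed by HCFC2 (0.956), KITLG, the ligand of the receptor KIT (0.954; 440, 162, 325 and 130), XPR1 (0.943), RXYLT1 (0.942) and PMVK (0.940). Among the members themselves, r was highest between AHR and NQO1 (0.86) and lowest between ARNT2 and TIPARP (-0.86).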

How the data were processed

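Per the labels' protocols, total RNA was reverse transcribed and biotin labelled with a 3-prime kit for Affymetrix arrays. The deposited values are intensities, 1 per probe set and array. Per the submitters' processing notes, Partek 6.5 and RMA were used. The deposited intensities run from 0.0212 to 17908 on a linear scale and every array has the same 2% trimmed mean (150), so log2 of the value was taken with no further normalization. The array medians differed, from 17.7 to 23.1 on the 11 arrays. With this scale and these medians, the deposited values should not be taken as RMA output. The number of arrays limits the precision.

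Of 54675 probe sets, 41091 carried 1 gene symbol, 1801 several and 11721 none, and 62 were controls. Each symbol was represented by its probe set of highest average over the 11 arrays, giving 19775 genes. Symbols were updated by gene ID; 42 were not found. limma 3.58.1 in R 4.3.3 fitted a mean per group (7 residual degrees of freedom), with 6 comparisons. The fit was also run on simulated arrays, drawn from the gene means and residual spreads of these data. Changes were planted in the Wee1 inhibitor II group alone, among brighter genes. Such arrays follow the model by construction, so they do not show how it holds on the real ones.

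The members, lists and tests were chosen with earlier results of these data known. All members were named, with up to 3 genes of each list by smallest p among called ones and the 5 most like each bright member. Genes named beyond that were chosen after their values were seen. They were ARNT, HSP90AA1, CYP1A2, CYP2S1 and marker genes. Named for their low signal were UGT1A1, UGT1A6, ALDH3A1, HIF3A, SIM1, SIM2, NPAS1, NPAS3, NPAS4, AKR1C1, AKR1C2, AKR1C3 and AKR1B10. Of 77 listed genes 70 were measured, and the others were not analysed here. The lists overlap: ARNT is in the receptor complex and bHLH-PAS lists, and NFE2L2 in the receptor target and NRF2 lists. Markers of blood (4 measured) and endothelium (3) summed to 55.4 to 89.5 and 24.3 to 54.4 on the 11 arrays. Alternatives were control replicate 2 included, array weights, the replicate block, other scalings, filters, a pseudocount of 16, other probe set rules, other empirical Bayes settings, a fit of only the arrays compared, and each array left out in turn.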

Additional observations from a re-analysis of the deposited data

Results flagged for a closer look

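The interaction of the drugs passed for AHR (-0.93), so its difference with Wee1 inhibitor II was not the same with and without 17-AAG. On control replicate 2, which no comparison used, 3 members lay above both other control arrays: AHR had a signal of 464 against 259 and 224, CYP1B1 had 175 against 12.5 and 6.54, and TIPARP had 1900 against 571 and 629. The other CYP1B1 probe sets had 195, 111 and 1.20 there. The remaining members lay below both control arrays, with 42.0 for AHRR, 14.8 for ARNT2, 18.0 for CYP1A1 and 810 for NQO1. The share of all genes outside the control arrays was not computed. This array has other cell markers, so the count is no result about the members.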

How the results depend on the processing

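Of 20 calls of members, all 20 were kept under quantile normalization, log2(value + 16), signals below 32 set to 32, averaging a gene's probe sets, trended and robust empirical Bayes and without the dimmest 40% of genes, and 18 with centred arrays, with every probe set tested and with control replicate 2 under array weights. Same-numbered arrays did not deviate together (15 pairs, r from -0.15 to 0.09, and 2 of 11 arrays correlated best with their own number), so numbers were not taken as pairs; with the replicate block 19 calls were kept, all but NQO1 with both drugs against control (-0.26). A fit of only the arrays compared kept 14 of 19, losing ARNT2 and NQO1 with 17-AAG, CYP1A1 and NQO1 with both drugs and TIPARP with Wee1 inhibitor II.

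Apart from fits that left out an array in turn, members called numbered at most 6 with Wee1 inhibitor II and 6 with both drugs. The number of members called with Wee1 inhibitor II was 0 with control replicate 2 included, against 5. With 17-AAG it was 2, and 1 with centred arrays, every probe set tested or control replicate 2 under array weights, 0 in a fit of the arrays compared or with control replicate 2 included, and 1 to 3 on leaving out an array (1 without control replicate 3). With both drugs it was 5, and 3 in a fit of the arrays compared, 1 with control replicate 2 included, and 3 to 5 on leaving out an array (3 without control replicate 1 or 3). Against 17-AAG and against Wee1 inhibitor II it was 0 with control replicate 2 included, against 3 and 4. For the interaction it was 1, and 2 with log2(value + 16), 3 with signals below 32 set to 32, with trended and robust empirical Bayes or without the dimmest 40%, and 0 with control replicate 2 included.

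With control replicate 2 included, signs turned for AHRR (0.75), CYP1A1 (0.19) and NQO1 (0.44) with 17-AAG, CYP1A1 with Wee1 inhibitor II (0.07) and for the interaction (-0.77), and NQO1 with both drugs (0.58). Given its other cell markers, these turns do not measure how the drug differences depend on processing. AHR with 17-AAG, at 0.00, became 0.01 with centred arrays, 0.02 with the replicate block and -0.11 to 0.10 on leaving out an array. The interaction of TIPARP, at 0.04, became -0.01 with the replicate block and -0.08 to 0.12 on leaving out an array. NQO1 with both drugs against 17-AAG became -0.06 with centred arrays. Leaving out a control array leaves 1, assumed to vary like the other groups. Over all genes, leaving out an array gave 3225 to 4891 calls with Wee1 inhibitor II, 1705 to 3159 with 17-AAG and 4009 to 5494 with both drugs. CYP1B1 lay below the array medians, which limits it; for CYP1A1 with both drugs, setting signals below 32 to 32 gave -1.50 (adjusted p = 0.0173).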
